A study of Mus musculus with 6 samples.

Results

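The miR-17-92 cluster is a group of 6 microRNA hairpins carried by the transcript of Mir17hg, a mouse long non-coding RNA gene. Each hairpin can give a mature microRNA from its 5′ side (5p) and from its 3′ side (3p), so the cluster has 12 mature arms. They were chosen by name, all arms of the 6 hairpins, from a table of 1915 mature microRNA names. All 12 had reads in every library and all 12 passed the filter on low counts, which kept 525 of the 1915 names. The arm with more reads over the 6 libraries is called the guide here and the other arm the passenger.

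The small RNA libraries came from mouse iBN cells, labelled as granulocyte-macrophage progenitors and kept as a suspension in serum-containing medium with GM-CSF. The cells carry an inducible system for PU.1 (gene Spi1), a transcription factor of myeloid cells. The first group was uninduced (3 libraries) and the second received doxycycline at 1000 ng/ml over 72 hours (3 libraries), and each group holds trials 1, 2 and 3. Both groups carry the inducible system. No doxycycline-treated cells without it were analysed here, so the effects of the drug and of PU.1 cannot be told apart. The sources used here do not say which promoter drives the system, whether the line is 1 clone, or whether the trials were separate cultures. The p-values therefore reflect library-to-library spread, whose source may be technical.

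A microRNA guides an Argonaute protein to messenger RNAs mainly through its seed, the bases near its 5′ end. Of the duplex cut from a hairpin, usually the guide is kept in Argonaute and the passenger is discarded. The miR-17-92 cluster is a direct target of Myc and of E2F factors, is amplified or overexpressed in lymphomas, and promotes proliferation and survival, in part through repression of Bcl2l11 (Bim). It has been reported to be silenced during PU.1-directed macrophage differentiation, and the series is titled as a study of PU.1 dose during the differentiation of myeloid cells.

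Mature sequences are shown to group the arms by seed, because each guide is compared below with the others of its seed and with its own passenger. RefSeq (GRCm38.p6, the mm10 assembly) held 11 of the 12; miR-19a-5p is named only. Capitals mark the seed, bases 2 to 8 from the 5′ end. The guides fall into 4 seed groups, and miR-19a-3p and miR-19b-3p differ at 1 base in all, outside the seed:
mmu-miR-17-5p: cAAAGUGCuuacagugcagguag
mmu-miR-20a-5p: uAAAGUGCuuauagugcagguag
mmu-miR-18a-5p: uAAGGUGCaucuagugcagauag
mmu-miR-19a-3p: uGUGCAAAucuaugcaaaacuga
mmu-miR-19b-3p: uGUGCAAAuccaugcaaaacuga
mmu-miR-92a-3p: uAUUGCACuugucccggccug

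The passengers carry other seeds. Those of miR-17, miR-18a and miR-20a are 3p arms whose seeds all start with CUGC, while the 2 below of miR-19b-1 and miR-92a-1 are 5p arms:
mmu-miR-17-3p: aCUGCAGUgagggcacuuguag
mmu-miR-18a-3p: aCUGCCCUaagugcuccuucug
mmu-miR-20a-3p: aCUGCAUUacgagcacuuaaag
mmu-miR-19b-1-5p: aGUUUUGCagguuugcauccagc
mmu-miR-92a-1-5p: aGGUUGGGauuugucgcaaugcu

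The hairpins lie on the plus strand of chromosome 14 in the order miR-17, miR-18a, miR-19a, miR-20a, miR-19b-1 and miR-92a-1, within 836 bases. Mir17 spans chr14:115043671-115043754 and Mir92-1, the last, spans chr14:115044427-115044506. All 6 lie in exon 2 of the GENCODE M21 model of Mir17hg (chr14:115042879-115046727). The RefSeq model of Mir17hg starts later, at 115044390, and contains only the miR-92a-1 hairpin. For that hairpin, the ratio of the arms gave the only change past the arm test in the fit without a trial block. The call was lost under several alternatives, described below. The hairpin is shown whole, with both of its arms in capitals:
Mir92-1: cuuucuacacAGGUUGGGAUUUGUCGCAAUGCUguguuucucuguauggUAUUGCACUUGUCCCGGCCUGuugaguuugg

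With 1 row kept per mature name, the libraries held 8697384 to 13946613 reads. The fixed myeloid markers, miR-223-3p, both arms of miR-142a, miR-155-5p and miR-146a-5p, were all present and summed to 71728 to 90735 CPM (counts scaled to a common library size, here with TMM factors) uninduced and 74233 to 91833 CPM induced. Muscle, liver and embryonic stem markers each summed to under 1 CPM in every library, at most 0.913 CPM. The 7 epithelial markers summed to 32.2 to 39.8 CPM uninduced and 81.1 to 101 CPM induced. Of the 5 epithelial markers tested, 3 passed as higher (4 with the trial as a block, described below), and miR-205-5p and miR-203-3p were too rare to test. No tested lymphoid, erythroid, stromal or neural marker passed, and neither did a myeloid one. With the block miR-181a-5p, miR-143-3p and miR-145a-5p passed as lower and the myeloid miR-146a-5p as higher (4.43 CPM uninduced and 6.55 CPM induced, edgeR adjusted p = 0.0373). Their summed levels were 30564 to 32823 and 23441 to 30827 CPM (lymphoid), 22.9 to 36.5 and 37.5 to 40.1 CPM (erythroid), 162 to 201 and 109.5 to 168 CPM (stromal), and 319 to 397 and 303 to 354 CPM (neural), uninduced and induced. The erythroid miR-144-3p, stromal miR-214-3p and neural miR-124-3p were at 0 reads in all libraries. The part of these shifts in the changes given below was not tested.

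The cluster took 8.44% ± 0.952 of the reads uninduced and 8.34% ± 0.256 induced (SD, n = 3 each). Nearly all of this was miR-92a-3p, which made up 88.9% ± 0.958 of the cluster's reads uninduced and 90.9% ± 0.824 induced. miR-92a-3p can also come from a hairpin outside the cluster, and only the higher of its deposited rows is counted. The share may therefore differ from the output of Mir17hg. The other 11 arms together took 0.911%, 0.986% and 0.890% of the reads in uninduced trials 1, 2 and 3 and 0.748%, 0.700% and 0.817% in induced trials 1, 2 and 3. Without miR-92a-3p, every induced library thus lay below every uninduced one.

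Over all 6 libraries miR-92a-3p averaged 75350.0 CPM and ranked 3 among all names. miR-17-5p (2094 CPM, rank 48), miR-19b-3p (2040.0 CPM, rank 51) and miR-20a-5p (1684 CPM, rank 56) followed, and neighbours in this order overlapped between libraries. Below them, and apart from them, came miR-18a-5p (834 CPM), miR-19a-3p (781 CPM) and miR-92a-1-5p (679 CPM), again with overlap between neighbours. miR-17-3p (174 CPM), miR-18a-3p (111 CPM) and miR-20a-3p (20.3 CPM) each stood apart from the next, and miR-19a-5p (5.22 CPM) and miR-19b-1-5p (4.59 CPM) overlapped at the bottom. The 11 arms with a sequence here are of nearly equal length (21 to 23 bases). How well an RNA takes the sequencing adaptors depends on its sequence, however, so reads of different arms are not molar amounts.

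**Figure D1:**
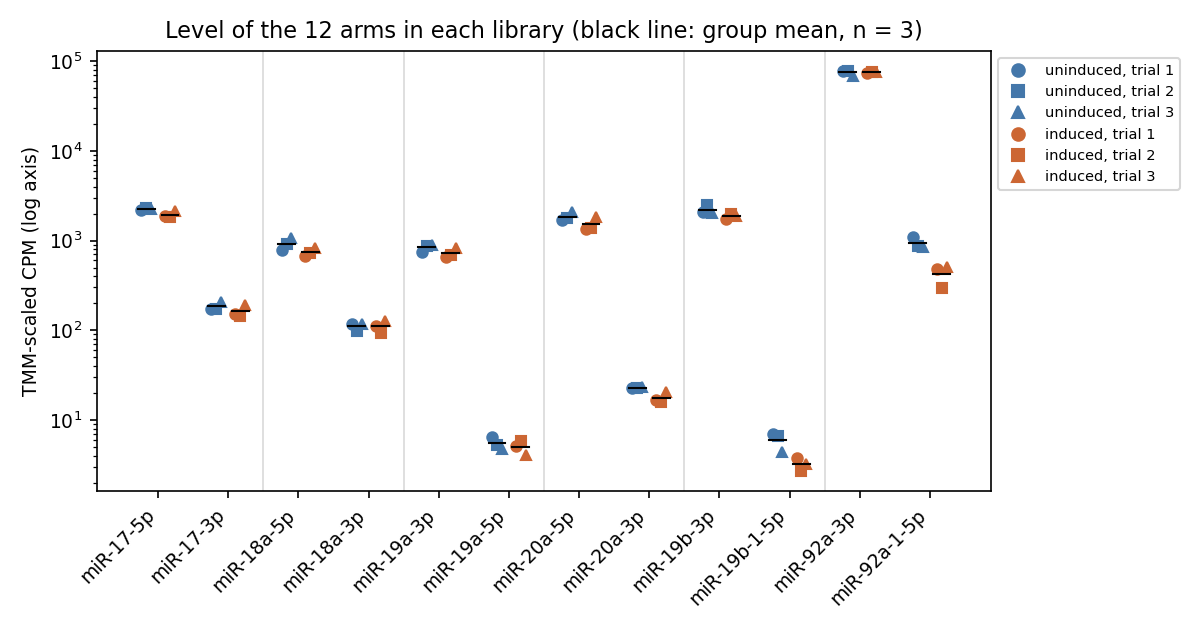
Level of each of the 12 arms in every library, in TMM-scaled CPM on a log axis, with hairpins in genomic order and the guide to the left of its passenger; points are libraries and black lines group means (n = 3). miR-92a-3p stands near 75350.0 CPM in both groups, while the uninduced and induced points of miR-92a-1-5p do not overlap.

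On induction 1 of the 12 arms passed the test, miR-92a-1-5p, which fell. In the edgeR quasi-likelihood test, adjusted by Benjamini-Hochberg over all 525 names, 6.10% of the names passed in either direction and 2.67% passed as lower. Before adjustment, 2 of the 12 had an edgeR p under 0.05, as did 109 of all 525 names (20.8%). The fitted change was negative for 10 of the 12 arms (12 of 12 with DESeq2 size factors), against 47.8% of all tested names, and the median log2 change of the 12 was -0.23, against 0.02 over all tested names. In 5 of the 12 the induced libraries all lay below the uninduced ones, against 11.6% of all tested names. These are bulk libraries scaled to their own totals, so fewer cells with a microRNA and less of it per cell cannot be told apart.

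Each trial number is shared by an uninduced and an induced library, which the fit above does not use. With the trial as a block, 5 of the 12 arms passed, all lower: miR-18a-5p, miR-20a-5p, miR-20a-3p, miR-19b-1-5p and miR-92a-1-5p. In that fit 21.7% of all tested names passed, and 11.0% passed as lower.

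**Figure D2:**
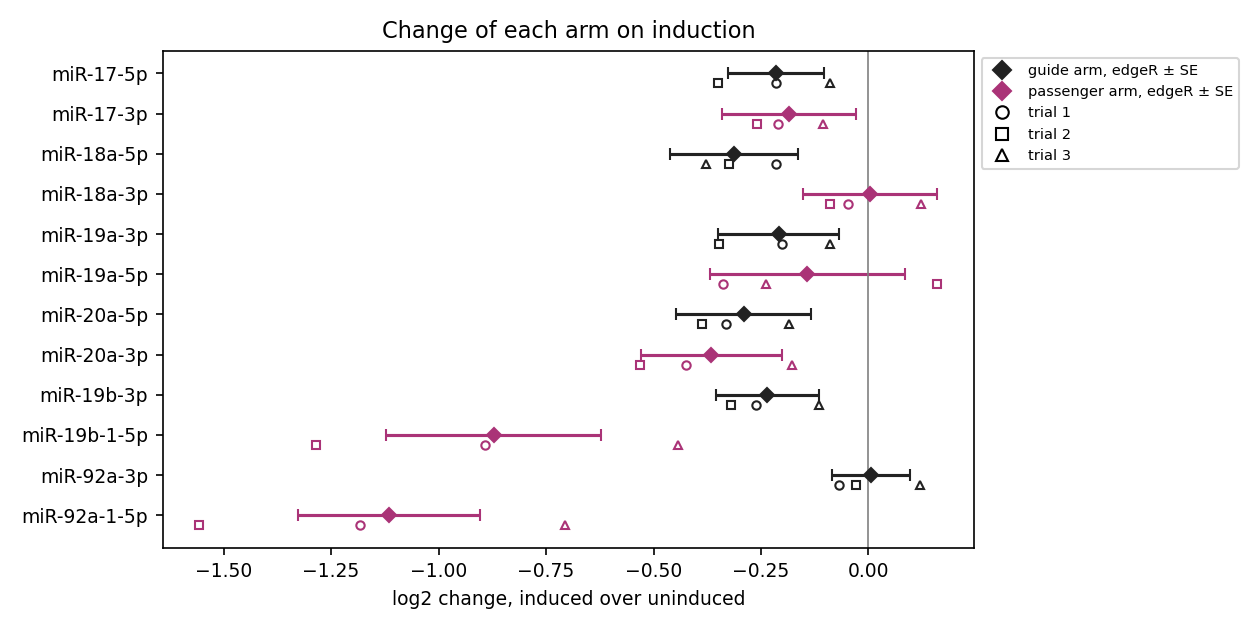
Log2 change of each arm, induced over uninduced; diamonds with bars are edgeR estimates ± SE and open symbols the difference within each trial. The guides other than miR-92a-3p lie between -0.31 and -0.21, and miR-92a-1-5p lies farthest from 0 at -1.12.

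miR-17-5p and miR-20a-5p share a seed with miR-93-5p and miR-106b-5p and are known to repress Bcl2l11, Cdkn1a and E2f1. miR-17-5p had 2186, 2319 and 2245 CPM in uninduced trials 1, 2 and 3 and 1883, 1819 and 2111 CPM in induced trials 1, 2 and 3. The groups did not overlap, and trial 3 was the highest of the induced libraries. The log2 change was -0.22 (SE 0.11), with an edgeR adjusted p of 0.304, or 0.0722 with the block.

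miR-20a-5p had 1679, 1784 and 2097 CPM uninduced and 1335, 1365 and 1846 CPM induced, in the same order of trials. The groups overlapped because trial 3 was the highest library of each, while within every trial the induced library was lower. The log2 change was -0.29 (SE 0.16), with an edgeR adjusted p of 0.326, and it passed with the block (adjusted p = 0.0180).

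miR-18a-5p, whose processing is known to depend on the RNA-binding protein hnRNP A1, had 785, 915 and 1073 CPM uninduced and 676, 731 and 826 CPM induced. Trial 1 was the lowest and trial 3 the highest library of each group, so the groups overlapped although the induced library was lower in all 3 trials. The log2 change was -0.31 (SE 0.15), with an edgeR adjusted p of 0.260, and it passed with the block (adjusted p = 0.0181).

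miR-19a-3p and miR-19b-3p, the members most needed for the cluster's activity in lymphoma models, had log2 changes of -0.21 (SE 0.14) and -0.24 (SE 0.12). miR-19a-3p had 750, 876 and 888 CPM uninduced and 652, 689 and 834 CPM induced, with overlap between groups. miR-19b-3p had 2102, 2468 and 2048 CPM uninduced and 1753, 1977 and 1892 CPM induced, with no overlap. Both were lower in all 3 trials and neither passed, with edgeR adjusted p of 0.431 and 0.298, or 0.0920 and 0.0534 with the block.

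miR-92a-3p, studied as a restraint on blood vessel growth, had 78211, 78156 and 69257 CPM uninduced and 74546, 76656 and 75274 CPM induced. The groups overlapped, and trial 3 differed in direction from trials 1 and 2. The log2 change was 0.01 (SE 0.09, edgeR adjusted p = 0.976). The direction of this value changed with the scaling and with the row kept, down to -0.19 with the lower of its deposited rows.

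Summed by seed, the miR-17 and miR-20a guides had 4103 CPM ± 239 uninduced and 3453 CPM ± 437 induced, and the miR-19a and miR-19b guides 3044 CPM ± 263 and 2599 CPM ± 171 (SD, n = 3 each). The log2 ratios of the group means were -0.25 for the miR-17 and miR-20a seed, -0.31 for the miR-18a seed, -0.23 for the miR-19 seed and 0.01 for the miR-92a seed. In the table, no mature name outside the cluster held the miR-19 seed. miR-18a-5p gave all but a trace of its seed's reads, 99.987% ± 0.0128 uninduced. miR-19b-3p and miR-92a-3p can also come from hairpins outside the cluster, so these shares are of names and not of hairpins. miR-92a-3p gave 90.8% ± 0.202 of the reads of its seed uninduced and 90.8% ± 1.16 induced, the rest coming mostly from miR-25-3p. For the miR-17 seed the cluster gave less, 44.9% ± 2.86 uninduced and 42.0% ± 5.20 induced. miR-93-5p alone averaged 4365 CPM uninduced and 4086 CPM induced. It lay above the sum of miR-17-5p and miR-20a-5p in trials 1 and 2 of both groups, but below it in trial 3, at 4083 against 4342 CPM uninduced and 3700 against 3957 CPM induced.

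Among the passengers, miR-92a-1-5p had 1087, 863 and 838 CPM in uninduced trials 1, 2 and 3 and 479, 293 and 513 CPM in the induced ones. Every induced library lay below every uninduced one, and induced trial 2 was the lowest. The group mean was 929 CPM ± 137 without and 429 CPM ± 118 with induction (SD, n = 3 each). The fitted log2 change was -1.12 (SE 0.21, edgeR adjusted p = 0.0139), a level 2.17-fold higher without induction. The call was lost without uninduced replicate 1 (log2 change -1.001, edgeR adjusted p = 0.118) and without both libraries of trial 1 (adjusted p = 0.248) or trial 2 (adjusted p = 0.0585).

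miR-19b-1-5p was rare, with 65, 59 and 48 reads uninduced and 45, 24 and 44 reads induced. At 6.94, 6.56 and 4.39 CPM against 3.74, 2.69 and 3.23 CPM, the groups did not overlap. The log2 change was -0.87 (SE 0.25), and the edgeR adjusted p was 0.0714, or 0.0146 with the block. It also passed without uninduced replicate 3 (adjusted p = 0.0320) and without the filter on low counts (adjusted p = 0.0362).

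The remaining passengers moved less. miR-20a-3p had 22.6, 22.7 and 23.3 CPM uninduced and 16.9, 15.7 and 20.6 CPM induced, with no overlap, a log2 change of -0.37 (SE 0.16) and an edgeR adjusted p of 0.237, or 0.0373 with the block. miR-17-3p had 185 CPM ± 19.7 uninduced and 163 CPM ± 26.4 induced, and miR-18a-3p 111 CPM ± 10.4 and 111 CPM ± 17.5 (SD, n = 3 each), with log2 changes of -0.18 (SE 0.16) and 0.00 (SE 0.16). miR-19a-5p, with 47 to 61 reads a library, had a log2 change of -0.14 (SE 0.23). These 3 overlapped between groups and did not pass with or without the block.

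The comparison of arms asked whether the guide and passenger of a hairpin kept their ratio, and it compares both arms inside each library, so the scaling between libraries drops out. Across 177 hairpins with both arms tested, an edgeR model with a term for each library and an arm by induction interaction passed 0.565% of hairpins, which is 1, and that was miR-92a-1. Before adjustment, 10 of the 177 hairpins had an edgeR p under 0.05, with 2 of the 6 cluster hairpins among them. Some hairpins share an arm: the 177 hold 348 distinct names. The guides of miR-92a-1 and miR-19b-1 can also come from hairpins outside the cluster, as described below. Their ratios may therefore mix reads of different hairpins, and the part of each was not tested.

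For the arms of miR-92a-1, uninduced trials 1, 2 and 3 had 72.0, 90.6 and 82.7 reads of miR-92a-3p per read of miR-92a-1-5p. The induced trials had 156, 261 and 147. The miR-92a-3p reads can also come from a hairpin outside the cluster. Every induced ratio lay above every uninduced one, and induced trial 2 was the highest. The ratio rose 2.22-fold, a log2 change of 1.15 (SE 0.23, edgeR adjusted p = 0.0497, or 4.3e-08 with the block). The block leaves few residual degrees of freedom per hairpin, so its p-values lean on the spread shared across hairpins. The hairpin of miR-210 had the same edgeR adjusted p with the block, and an unadjusted p of 0.228 without it. Without the block, the call was lost with the summed rows of miR-92a-3p (adjusted p = 0.0648) and with its lower row (log2 change 0.96, adjusted p = 0.180). It was also lost without uninduced replicates 1 (adjusted p = 0.414) or 2 (0.0768) and without induced replicates 1 (0.0502) or 2 (0.0755). Without both libraries of trial 1, 2 or 3 the adjusted p was 0.858, 0.181 and 0.0661, so the call was lost each time.

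The arms of miR-19b-1, whose guide can also come from a hairpin outside the cluster, had 303, 376 and 466 guide reads per passenger read uninduced. The induced libraries had 469, 735 and 586. The groups did not overlap, though uninduced trial 3 and induced trial 1 nearly met. The log2 change was 0.62 (SE 0.25) with an edgeR adjusted p of 0.711, and it passed with the block (adjusted p = 0.0337). With the block 7.91% of the 177 hairpins passed.

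The other 4 hairpins overlapped between groups and did not pass in either fit. Their mean guide to passenger ratios were 12.3 ± 1.30 and 12.01 ± 0.932 for miR-17, 8.39 ± 1.41 and 6.78 ± 0.969 for miR-18a, 157 ± 35.9 and 151 ± 48.3 for miR-19a and 81.0 ± 8.25 and 85.3 ± 5.50 for miR-20a, uninduced and induced (SD, n = 3 each). miR-18a was the only one of the 4 with a change above 0.1 (log2), at -0.30 (SE 0.21), with an edgeR adjusted p of 0.970 ( 0.0542 with the block). The hairpins of the cluster with a 5p guide (miR-17, miR-18a and miR-20a) had ratios from 6.02 to 90.2 in single libraries. Those with a 3p guide had ratios from 72.0 to 735. For miR-19b-1 and miR-92a-1 the guide reads may include those of hairpins outside the cluster, so these ranges are not directly comparable.

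**Figure D3:**
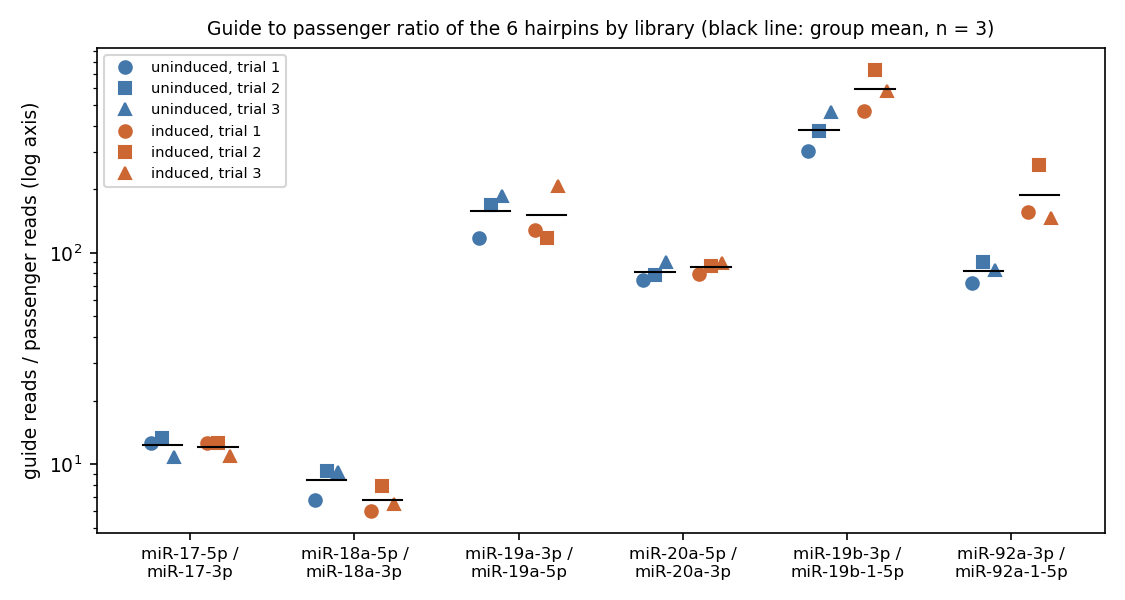
Reads of the guide per read of the passenger in each library for the 6 hairpins, on a log axis; points are libraries and black lines group means (n = 3). The induced points of miR-92a-1 (147 to 261) all lie above the uninduced ones (72.0 to 90.6), while those of miR-17 and miR-20a overlap. The guides of miR-19b-1 and miR-92a-1 can also come from hairpins outside the cluster.

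**Figure D4:**
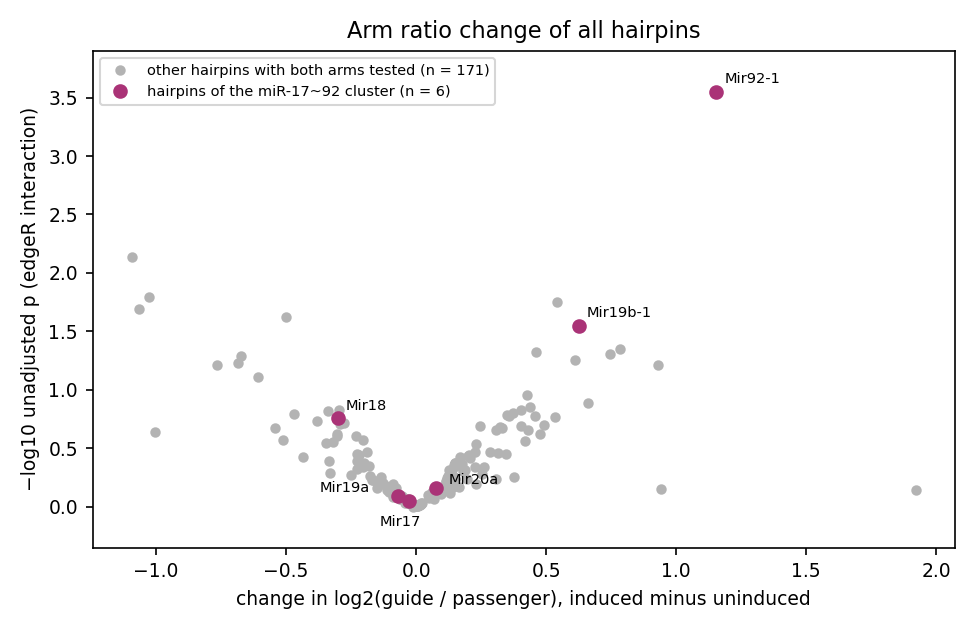
Change in log2(guide / passenger) on induction against −log10 of the unadjusted p for the 177 hairpins with both arms tested; the 6 hairpins of the cluster are marked. Mir92-1 lies at 1.15 and is the only hairpin past the adjusted threshold in this fit without the trial block (edgeR adjusted p = 0.0497). With the block 14 of the 177 hairpins passed, and with the summed or the lowest rows per name 0 passed. The guide of Mir92-1 can also come from a hairpin outside the cluster.

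miR-19b-3p and miR-92a-3p can also come from the miR-106a-363 cluster on chromosome X, a paralogue that carries second copies of both hairpins. The passengers that only those copies give, miR-19b-2-5p and miR-92a-2-5p, had 0 reads in all 6 libraries, where a count of 0 in 1 library allows up to 0.220 to 0.336 CPM (3 counts, covering counting error only). Of the 10 arms of that cluster listed here, 7 had 0 reads, these passengers and miR-363-3p among them, and miR-18b-5p had 5 reads in all. The other two passed the filter on low counts: miR-106a-5p had 104 reads over the 6 libraries, a mean of 1.62 CPM, and miR-20b-5p had 65 reads, a mean of 0.999 CPM. miR-106a-5p differs from miR-17-5p at 1 base and miR-20b-5p from miR-20a-5p at 2 bases, and whether these few reads are misread copies of the more abundant arms was not tested.

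The table holds 2 rows for each of these shared guides. For miR-19b-3p the rows were nearly equal, the lower holding 99.9% ± 0.0541 of the higher uninduced. For miR-92a-3p the row listed beside miR-92a-1-5p was the higher and was kept. The row listed beside miR-92a-2-5p held 46.6%, 49.4% and 44.0% of it in uninduced trials 1, 2 and 3 and 42.3%, 39.7% and 40.6% in the induced ones. Every induced percentage lay below every uninduced one. The files do not say what separates the rows, so neither is taken as the output of a given hairpin.

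Of the 16 arms of the miR-106a-363 and miR-106b-25 clusters, 8 could be tested, 0 passed in edgeR with or without the block, and 0 reached an unadjusted p under 0.05. No alternative fit, DESeq2 and limma-voom included, passed any of them. The miR-106b-25 cluster lies in an intron of the replication gene Mcm7 and shares seeds with miR-17, miR-20a and miR-92a. miR-25-3p went from 7204 CPM ± 672 to 7221 CPM ± 1228 and miR-93-5p from 4365 CPM ± 244 to 4086 CPM ± 392, with log2 changes of 0.00 (SE 0.14) and -0.10 (SE 0.11). miR-106b-5p and miR-106b-3p had log2 changes of 0.05 (SE 0.13) and 0.13 (SE 0.12). The median log2 change over the 8 arms was -0.01.

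Across the 6 libraries, the tested microRNAs outside the cluster whose log2 CPM was closest to the mean of the 12 arms were miR-365-3p (r = 0.99), miR-331-5p (r = 0.99), miR-221-5p (r = 0.96), miR-132-3p (r = 0.96) and miR-674-3p (r = 0.95). These are Pearson correlations over 6 points that share libraries and scaling, and they are given as a description. The level of miR-365-3p was 309 CPM ± 6.98 without and 213 CPM ± 36.0 with induction (SD, n = 3 each). Within the cluster, miR-92a-1-5p was closest to miR-19b-1-5p and miR-20a-3p (r = 0.92 each) and then to miR-17-5p, the guide of another hairpin (r = 0.88), over the same 6 libraries. With its own guide, miR-92a-3p, r was -0.02.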

How the data were processed

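Per the series' design text, reads were aligned to miRBase, and the submitters' processing notes list Trim Galore 0.4.0, DESeq2 2.1.8.0 (as written there) and mm10. How reads were counted, also those with several matches, is not given in the sources used here. The authors deposited raw read counts and CPM (counts scaled to the sum of all rows of a library), and the CPM served in 1 alternative. The table has 2061 rows and 1915 names, 83 of them with several rows. The row with the highest total was kept, which left out 17.5% of the counts.

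The count test was edgeR 4.0.16 under R 4.3.3 (TMM, filterByExpr, robust quasi-likelihood fit on the group, two-sided, Benjamini-Hochberg at 0.05). SE is the size of the log2 change over the square root of F. Arm ratios were tested in a model of library, arm and arm by induction. The table has no column of precursors, so arms were paired through RefSeq hairpins or their names. DESeq2 1.42.0 and limma 3.58.1 were alternatives. No molecular identifiers are described. Library pairs of a group differed by more than sampling noise (lowest chi-square over its degrees of freedom 98.7).

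Libraries of the same trial deviated together from their group means (r from 0.33 to 0.53 across microRNAs, against at most 0.04 between trials). Each group was centred on its own libraries, so same-trial values above 0 push those between trials down, and part of this contrast comes from the centring. The main fits did not use the trial, which entered as a block in an alternative fit. The 12 arms, the lists and the tests were chosen with earlier results of these data known. The text names all members, listed paralogues that passed or were among the 4 most abundant, the passengers of the second copies and the 5 microRNAs with the closest profile; other names were chosen after their values were seen.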

Additional observations from a re-analysis of the deposited data

How the results depend on the processing

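The median log2 change of the 12 arms (-0.23) stayed negative under every alternative and ranged from -0.36 (without induced replicate 3) to -0.18 with single libraries left out. The number of arms passing (1) was 5 with the replicate block, 2 with no filter, 0 to 2 with 1 library left out, and 0 without both libraries of trial 1 or of trial 2. The block changed no other call of a member arm. The number of hairpins of the cluster passing the arm test (1) was 2 with the replicate block, 2 with the block and the lowest row together (chosen after seeing the data), 0 with the summed rows, 0 with the lowest rows, and 0 to 1 with 1 library left out. It was 0 without the pair of trial 1, of trial 2 or of trial 3, an alternative also chosen after seeing the data. Fits that leave out libraries have fewer samples and no trial term, and no other cause was tested. Of 320 single values under an alternative, 278 kept direction and call, 8 gained and 12 lost the call, and 22 changed sign. The sign changes concerned 4 values near 0. miR-18a-3p was -0.0031 with the block, -0.024 with DESeq2 size factors and with DESeq2, -0.0024 with limma-voom, and ranged from -0.15 to 0.11 with 1 library left out. miR-92a-3p was -0.058 with summed rows, -0.19 with the lowest row, -0.022 with DESeq2 size factors and with DESeq2, and ranged from -0.056 to 0.045 with 1 library left out. Without trial 3 these were -0.079 and -0.062. The arm ratio change of miR-17 ranged from -0.11 to 0.040 and that of miR-19a from -0.32 to 0.083 with 1 library left out, and without trial 2 they were 0.0056 and 0.14. miR-19a-5p and miR-19b-1-5p, with 24 to 65 reads a library, were too rare for the 10 CPM filter, so no value exists there.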
